A study of Mus musculus with 4 samples.

Results

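The genes examined were the cornification genes of the epidermis and the S100a family, measured by RNA-seq in medullary thymic epithelial cells (mTECs). They were chosen by symbol, with earlier results of these data known: a symbol beginning with Sprr, Lce or S100a and a digit, or one of *Ivl*, *Lor*, *Flg*, *Flg2*, *Hrnr*, *Rptn*, *Tchh*, *Tgm1*, *Tgm3*, *Cnfn*, *Grhl1* and *Grhl3*. The rule found 58 of the 23337 genes in the count table, namely 18 Lce, 15 Sprr and 14 S100a genes, 4 S100 fused-type genes, 5 envelope and cross-linking genes and 2 Grhl factors. *Flg* was not analysed here. The mTECs were sorted as CD45- EpCAM+ UEA-1+ Ly51- cells from the thymus of C57BL/6 mice aged 4 weeks, with 2 libraries for each genotype. The libraries labelled *Sirt6* cKO (genotype *Sirt6*-/- in the labels, here the cKO-labelled libraries) came from mice in which *Foxn1*-Cre, active in thymic epithelium, acts on loxP-flanked *Sirt6* alleles. The WT libraries came from mice without the Cre. Whether the cells of a library came from 1 mouse or several is not given in the sources used here, so p-values measure the spread between these libraries.

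Cornification is the last step in the life of a keratinocyte. Precursor proteins such as involucrin, loricrin and the small proline-rich (SPRR) and late cornified envelope (LCE) proteins are bound to each other by transglutaminases into a tough shell under the cell membrane, and S100 fused-type proteins such as repetin, hornerin and trichohyalin join that shell or bundle keratin. Most of these genes and the S100a genes lie together in the epidermal differentiation complex, and Grhl factors act on many of them in epidermis. In the thymic medulla, some mTECs that have passed through the *Aire*-expressing stage take on a keratinocyte-like programme and form or join Hassall's corpuscles.

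Count totals ran from 61102704 to 65907745 per library, and 18547 genes passed the filter on low counts. Counts of *Sirt6*, the targeted gene, were 622 and 755 in WT against 882 and 835 in the cKO-labelled libraries. Its log2 fold change was 0.37 (SE 0.32, adjusted p = 0.80, edgeR's quasi-likelihood test with Benjamini-Hochberg adjustment). The count of the whole gene was thus not lower in the libraries labelled as knockouts. Such a count cannot show the loss of single exons, and the position of the deleted exons was not analysed here. The authors reported that *Sirt6* was inactivated, from a western blot of cultured thymic epithelial cells and quantitative PCR of sorted mTECs. The mTEC markers *Epcam*, *Aire*, *Cd80* and *Cldn4* were detected in every library. Of the 13 mTEC markers tested, *Cd80*, *Aire* and *Epcam* were higher and *Ccl21a* was lower at an unadjusted p under 0.05 in the cKO-labelled libraries. The shares over all genes tested were 5.27% higher and 3.32% lower. Fewer cells of a type and less RNA per cell cannot be told apart in these bulk samples.

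In the comparison of the cKO-labelled libraries with WT, 4 of the 57 members tested were higher at an unadjusted p under 0.05, and 0 were lower. The 4 were *Rptn* and *Hrnr*, which code for the S100 fused-type proteins repetin and hornerin, *Tgm1*, which codes for the main membrane-bound transglutaminase of keratinocytes, and *Grhl3*, a grainyhead-like transcription factor of surface epithelium. The differences of these 4, which the threshold itself had picked, were between 0.84 and 1.01 on the log2 scale. Among all genes tested, 5.27% were higher and 3.32% were lower by the same rule, so the share of members called higher, 4 of 57, was near the background. No member passed the Benjamini-Hochberg adjustment of edgeR's quasi-likelihood test (lowest adjusted p = 0.54), which 0.00539% of all genes passed. DESeq2, a second tool, gave 2 members an adjusted p under 0.05, *Rptn* (0.014) and *Grhl3* (0.030). Of the 19383 genes to which it gave an adjusted p, 1.03% were called higher at this threshold. With upper quartile normalization or with library size alone in place of TMM, the same 4 members were higher and 1 member, *Sprr2i*, was lower. Those scalings also moved the share of higher genes among all calls from 61.4% to 48.4% and 46.2%.

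The members did not move together. The log2 fold change was positive in 30 of the tested members and negative in 27, against 49.6% positive among all genes tested, and its median was 0.12, against -0.0047 over all genes. Both cKO-labelled libraries lay above both WT libraries for 20 members and below them for 15, while 22 overlapped. Among all genes tested, 21.6% lay above and 20.3% lay below without overlap. *S100a5* had 0 counts in each of the 4 libraries and was the member that could not be tested. The plot of all differences groups the members by family.

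**Figure D1:**
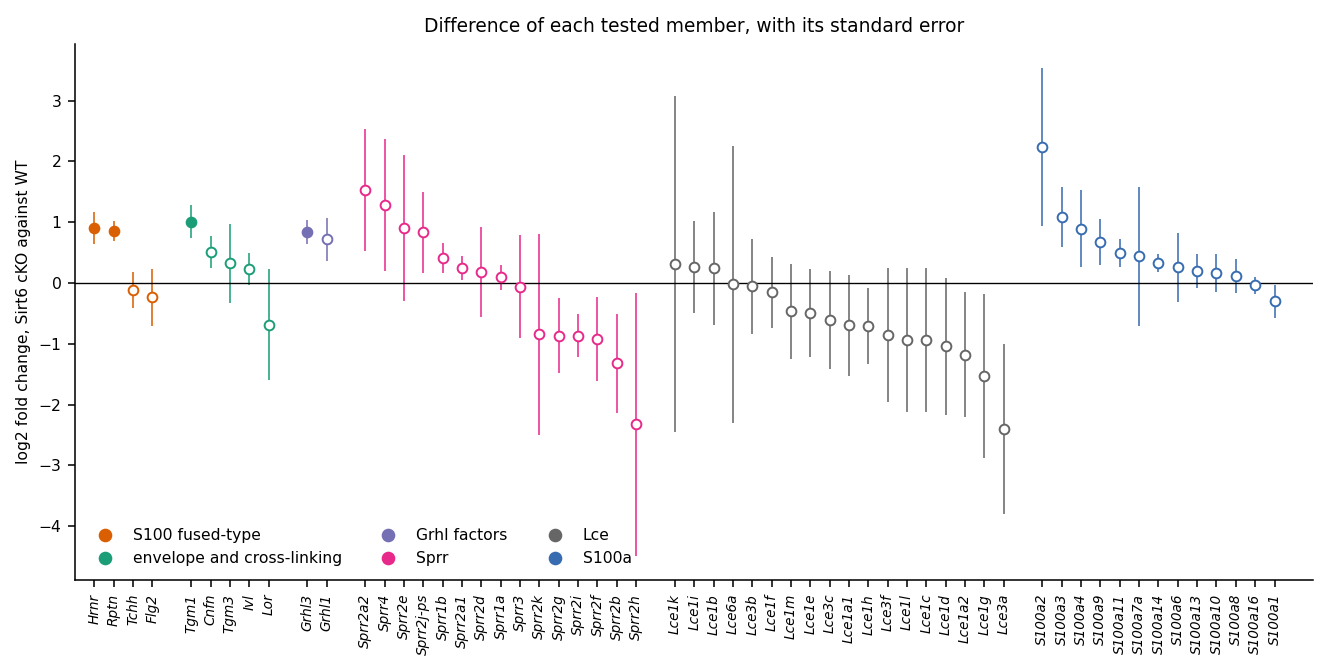
Each point is the log2 fold change (edgeR) of 1 of the 57 tested members in the cKO-labelled libraries against WT, with bars of 1 standard error and filled points at an unadjusted p under 0.05. The 4 filled points, *Hrnr*, *Rptn*, *Tgm1* and *Grhl3*, lie between 0.84 and 1.01, while 15 of the 18 Lce genes lie below 0 with wide bars.

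Repetin was the most abundant fused-type member. *Rptn* (chromosome 3, GRCm38, 93393699 to 93399442, + strand) stood at 486 and 587 CPM (counts per 1000000 of the TMM library size) in WT and at 1003 and 941 CPM in the cKO-labelled libraries. The groups did not overlap, and the 2 libraries within each group lay closer to each other than to any library of the other group. The means were 536 ± 71.4 and 972 ± 43.7 CPM (SD, n = 2 each), a 1.81-fold difference. Exons of *Rptn* overlap those of *Gm37857* on the same strand by 45 bases, so reads there cannot be assigned with certainty. The log2 fold change was 0.86 (SE 0.16, adjusted p = 0.54, edgeR's quasi-likelihood test). It ranged from 0.70 to 1.0 when each library was left out in turn, and its unadjusted p stayed under 0.05 in each alternative run.

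Hornerin, a large repeat-rich relative of filaggrin, is coded next to repetin. *Hrnr* (chromosome 3, 93319749 to 93333570, + strand) had 36.3 and 38.8 CPM in WT and 82.0 and 58.6 CPM in the cKO-labelled libraries. The WT libraries were nearly equal, and the spread lay within the cKO-labelled libraries, the first of which was the highest. The log2 fold change was 0.91 (SE 0.26, adjusted p = 0.54, edgeR's quasi-likelihood test). It was 0.64 without *Sirt6* cKO 1 and 0.83 without WT 1, and in both cases the unadjusted p was no longer under 0.05.

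Neither of the other fused-type members had an unadjusted p under 0.05. *Flg2*, which codes for filaggrin-2, had 4.97 and 4.49 CPM in WT and 3.98 and 4.05 CPM in the cKO-labelled libraries, a log2 fold change of -0.24 (SE 0.46, adjusted p = 0.93, edgeR). *Tchh*, which codes for trichohyalin, a protein of hair follicle sheath and tongue epithelium, had 128 and 180 CPM in WT against 112 and 174 CPM. Here the second library of each genotype was the higher one and the groups overlapped, with a log2 fold change of -0.11 (SE 0.30). Between *Flg2* and *Tchh* lie *Hrnr* and *Rptn*. The estimates of these neighbours fell on both sides of 0, but those of *Flg2* and *Tchh* lay within 1 standard error of 0.

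*Tgm1* had replicates that lay close to each other. The gene (chromosome 14, 55700009 to 55713926, - strand) stood at 13.7 and 14.2 CPM in WT and 28.9 and 27.5 CPM in the cKO-labelled libraries. Every library of one genotype lay about 1 log2 unit from every library of the other. The log2 fold change was 1.01 (SE 0.27, adjusted p = 0.54, edgeR's quasi-likelihood test). Without *Sirt6* cKO 1 or *Sirt6* cKO 2 it was 0.98 and 1.01, and the unadjusted p was no longer under 0.05. Of its exon sequence, 182 bases overlap *Gm49067* on the other strand, and the strand setting of the counting is not given in the sources used here.

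None of the envelope precursors, and not *Tgm3*, had an unadjusted p under 0.05. *Ivl*, which codes for involucrin, an early scaffold of the envelope, had 26.2 and 23.5 CPM in WT and 27.2 and 31.1 CPM in the cKO-labelled libraries (log2 fold change 0.23, SE 0.26). *Cnfn*, which codes for cornifelin, had 26.4 and 34.9 CPM in WT and 42.0 and 45.4 CPM in the other group. That was a log2 fold change of 0.51 (SE 0.26) at an adjusted p = 0.65 by edgeR's quasi-likelihood test, with groups that did not overlap. *Lor*, which codes for loricrin, the bulk protein of the epidermal envelope, was low and scattered, at 6.51 and 2.39 CPM in WT and 1.04 and 4.49 CPM in the cKO-labelled libraries (log2 fold change -0.68, SE 0.92). Its difference changed sign when WT 1 or *Sirt6* cKO 1 was left out. *Tgm3*, a soluble epidermal and hair follicle transglutaminase, had 3.65 and 3.80 CPM in WT and 6.91 and 2.45 CPM in the other group, so the cKO-labelled libraries were the highest and the lowest of the 4 (log2 fold change 0.33, SE 0.65, and -0.61 without *Sirt6* cKO 1).

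Both Grhl factors lay on the higher side. *Grhl3* (chromosome 4, 135541888 to 135573630, - strand) had 76.2 and 73.7 CPM in WT and 124 and 145 CPM in the cKO-labelled libraries. The groups were far apart relative to their spread, with means of 75.0 ± 1.77 and 134 ± 14.7 CPM (SD, n = 2 each). The log2 fold change was 0.84 (SE 0.20, adjusted p = 0.54, edgeR's quasi-likelihood test), and its unadjusted p stayed under 0.05 in each alternative run. *Grhl1*, the related factor that acts on desmosomal cadherin genes, had 66.4 and 40.5 CPM in WT and 68.3 and 108 CPM in the other group. The nearest libraries, WT 1 and *Sirt6* cKO 1, were almost equal, and the log2 fold change of 0.72 (SE 0.36) had an adjusted p = 0.64 by edgeR's quasi-likelihood test. Leaving out each library in turn moved it between 0.32 and 1.10.

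**Figure D2:**
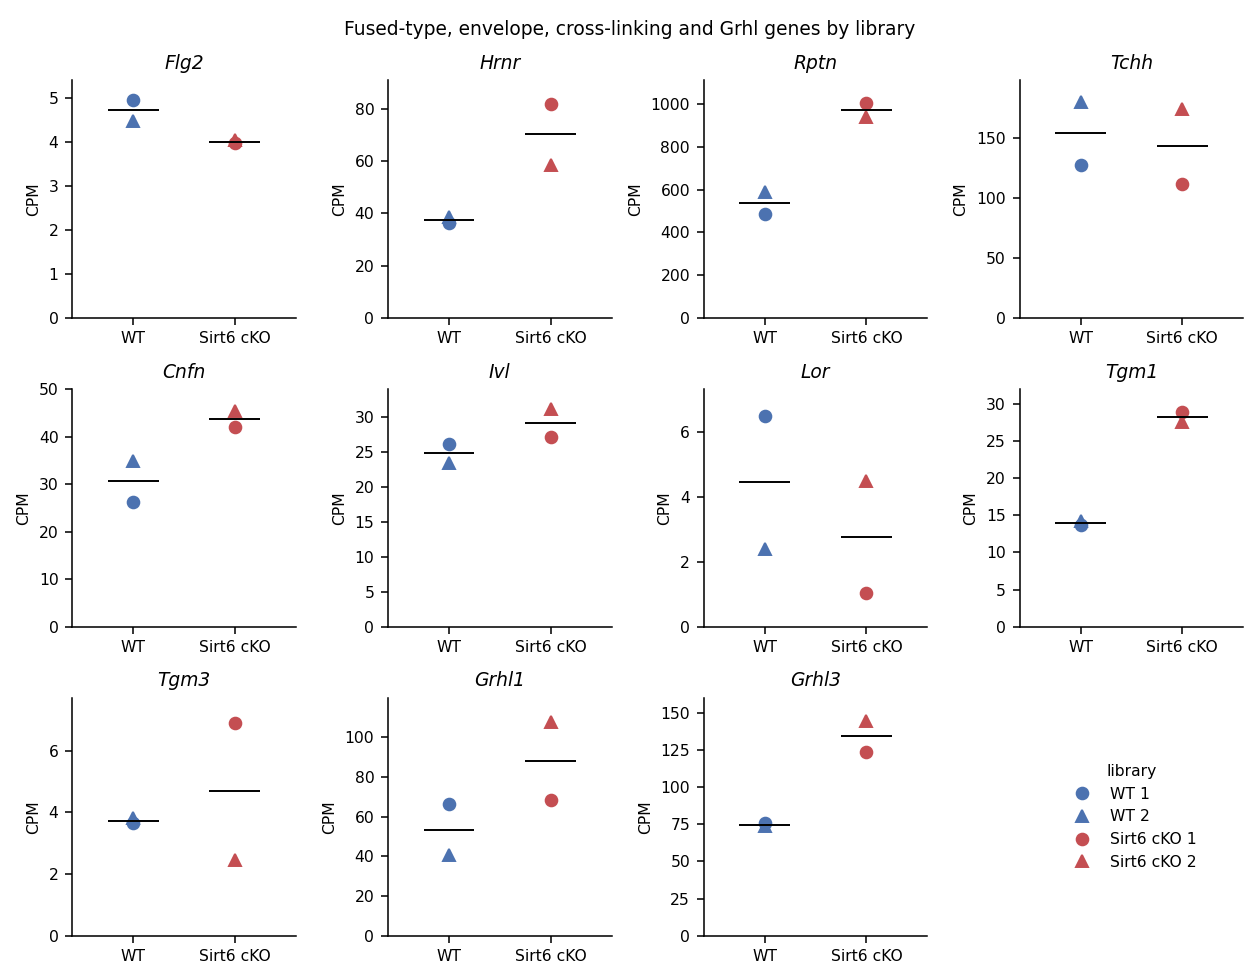
Points are CPM in each library (linear axes from 0, 1 panel per gene) and bars are group means of 2 libraries, for the 4 fused-type genes, the 5 envelope and cross-linking genes and the 2 Grhl factors. In the *Rptn*, *Tgm1* and *Grhl3* panels the groups stand apart, whereas *Tchh*, *Lor* and *Tgm3* overlap.

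The 250 bases upstream of the annotated start of the members with the lowest p-values are printed to show whether they hold the letters bound by Grhl and other factors of this programme. Promoters came from RefSeq (GRCm38.p6) and were found for 52 of the 58 members. Capitals mark matches, on either strand, to AACCNGTT (the letters bound by Grhl factors), TGANTCA (AP-1), GAGGAAGT (Ets factors of the Spi-B type) and TATAAA (the TATA box). The last was added after the sequences had been read. For *Tgm1*, which has 2 RefSeq starts, the window before the upstream one is shown. The GENCODE span of this gene, given above, reaches 55713926, so this window lies inside that span.
*Rptn*, chr3:93393449-93393698, + strand: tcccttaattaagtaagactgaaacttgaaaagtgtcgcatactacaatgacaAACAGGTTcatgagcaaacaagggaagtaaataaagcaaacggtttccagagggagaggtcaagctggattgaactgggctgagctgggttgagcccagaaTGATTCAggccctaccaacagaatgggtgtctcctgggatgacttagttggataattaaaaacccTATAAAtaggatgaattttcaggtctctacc
*Hrnr*, chr3:93319499-93319748, + strand: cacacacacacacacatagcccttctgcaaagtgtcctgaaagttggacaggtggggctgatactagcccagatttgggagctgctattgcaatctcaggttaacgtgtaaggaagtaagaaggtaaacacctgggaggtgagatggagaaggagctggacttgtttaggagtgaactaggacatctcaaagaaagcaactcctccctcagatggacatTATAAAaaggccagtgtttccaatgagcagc
*Grhl3*, chr4:135573633-135573882, - strand: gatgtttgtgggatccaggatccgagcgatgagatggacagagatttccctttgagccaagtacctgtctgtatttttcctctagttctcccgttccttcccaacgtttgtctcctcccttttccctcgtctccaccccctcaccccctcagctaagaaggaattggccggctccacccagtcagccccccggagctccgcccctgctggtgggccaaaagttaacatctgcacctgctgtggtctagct
*Tgm1*, chr14:55713493-55713742, - strand: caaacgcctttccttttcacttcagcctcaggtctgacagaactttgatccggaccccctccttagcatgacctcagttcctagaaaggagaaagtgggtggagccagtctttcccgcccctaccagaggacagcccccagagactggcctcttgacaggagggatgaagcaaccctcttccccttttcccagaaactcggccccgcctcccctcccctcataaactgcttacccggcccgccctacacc
The *Rptn* window held a Grhl match beginning at position -197 from the start, an AP-1 match at -96 and a TATA match at -31. The *Hrnr* window held the TATA match alone, also at -31. No match was present in these windows of *Grhl3* and *Tgm1*, which says only that these letters are absent there. The motifs did not overlap in the windows shown.

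Across the members, the motifs were spread unevenly over the families. TGANTCA was in 15 of the 52 member promoters (28.8%) and in 7.82% of all 27025 genes with a promoter. It was in 9 of 13 Sprr promoters, in 0 of 17 Lce promoters and in 2 of 11 S100a promoters. AACCNGTT was in the promoters of 3 members, *Rptn*, *S100a3* and *S100a9* (5.77%, against 2.0% of all genes), and GAGGAAGT was in those of 4 members (7.69%, against 2.79%). TATAAA was in 21 member promoters (40.4%, against 14.3%), of which 10 were Sprr promoters. Many members are related genes that lie side by side, so their promoters are not independent counts to set against all genes. A match describes the sequence and not a bound site.

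Sprr genes code for small proline-rich precursors that bridge other envelope proteins. *Sprr1a* was by far the most abundant of them per length, at 759 and 1046 TPM (the authors' per-length values) in WT and 1025 and 885 TPM in the cKO-labelled libraries. The groups overlapped, and the log2 fold change from counts was 0.09 (SE 0.21). *Sprr1b* followed with 77.7 and 99.1 TPM against 115 and 118 TPM. Its log2 fold change was 0.41 (SE 0.25) at an adjusted p = 0.71 by edgeR's quasi-likelihood test, although its groups did not overlap. *Sprr2a1* had 78.9 and 78.7 TPM against 102 and 83.6 TPM (log2 fold change 0.25, SE 0.19). It shared 96.3% of its 50-base words with other transcripts, *Sprr2a2* among them, so the split of reads within this pair is uncertain.

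The Sprr differences lay on both sides of 0. Of the 15, 8 had a positive and 7 a negative log2 fold change, with a median of 0.09, and none had an unadjusted p under 0.05. The lowest adjusted p belonged to *Sprr2i*, chosen after its values were seen, with 11.2 and 15.7 CPM in WT and 7.77 and 6.97 CPM in the cKO-labelled libraries. Its log2 fold change was -0.87 (SE 0.35, adjusted p = 0.59, edgeR's quasi-likelihood test). The other Sprr2 genes next to it reached from -2.32 for *Sprr2h*, with counts of 24 and 62 in WT against 16 and 0, to 1.53 for *Sprr2a2*, with counts of 36 and 302 against 368 and 588. Summed over the 15 genes, the level was 1025 and 1352 TPM in WT and 1342 and 1179 TPM in the other group, and the groups overlapped.

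Lce genes code for small late precursors that are added when the envelope is nearly complete. They were the low end of the programme. Their mean levels ran from 0.384 to 18.1 TPM, and counts summed over all 18 were 1781 and 2645 in WT against 1266 and 1846 in the cKO-labelled libraries. On the per-length scale the sums were 85.1 and 132 TPM against 64.9 and 90.5 TPM, so the summed level overlapped between the groups.

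The direction was nevertheless shared by most Lce genes. The log2 fold change was negative in 15 of the 18, with a median of -0.66, while 49.6% of all genes tested were positive. No Lce gene had an unadjusted p under 0.05 (adjusted p from 0.69 to 0.999, edgeR's quasi-likelihood test). The groups did not overlap on the lower side for 8 of the 18 Lce genes and on the higher side for 1, beside 20.3% and 21.6% of all genes tested. The median stayed below 0 in each alternative run, between -0.90 and -0.27, with 12 to 16 genes negative. Lce1 genes other than *Lce1m* share 9.12% to 27.1% of their 50-base words with other transcripts, and Lce3 genes share 12.1% to 48.0%, so they are not independent measurements.

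The abundant Lce genes scattered between libraries. *Lce1f*, the most abundant per length, had 10.5 and 27.7 TPM in WT and 13.9 and 20.1 TPM in the cKO-labelled libraries. Its WT libraries were the lowest and the highest of the 4, and its log2 fold change was -0.15 (SE 0.59). *Lce1m* had 4.30 and 18.2 TPM against 7.73 and 8.33 TPM (-0.46, SE 0.78), with WT 2 again the highest. Both differences became positive without WT 2. *Lce3c* had 7.46 and 13.8 TPM against 4.18 and 9.5 TPM (-0.62, SE 0.81). The largest negative difference, named after its values were seen, was that of *Lce3a*, with counts of 41 and 54 in WT against 10 and 7 (-2.41, SE 1.4, adjusted p = 0.69, edgeR's quasi-likelihood test). It was negative with each library left out (-2.74 to -2.17), and its unadjusted p was under 0.05 in 3 alternative runs, the TPM filter and both limma fits on TPM.

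S100a genes code for small calcium-binding proteins, and as a family they held the highest levels among the members. *S100a16* led with 1608 and 1820 TPM in WT and 1612 and 1707 TPM in the cKO-labelled libraries. These groups overlapped, and the log2 fold change from counts was -0.04 with the smallest standard error of all members, 0.14. *S100a14*, a membrane-associated family member of epithelia coded next to *S100a16*, had 931 and 988 TPM against 1274 and 1128 TPM. Its groups did not overlap, and its log2 fold change was 0.33 (SE 0.15) at an adjusted p = 0.63 by edgeR's quasi-likelihood test. *S100a11*, a transglutaminase substrate of the envelope, had 163 and 192 TPM against 265 and 231 TPM (0.50, SE 0.23). Its adjusted p was 0.64 by the same test, and 41.1% of its 50-base words are shared with other transcripts.

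*S100a8* and *S100a9* form calprotectin, which stressed keratinocytes make and which neutrophils and monocytes hold in large amounts. *S100a8* had 37.5 and 27.1 CPM in WT and 36.0 and 34.1 CPM in the cKO-labelled libraries. These groups overlapped (log2 fold change 0.12, SE 0.28). *S100a9* had 26.1 and 20.0 CPM against 47.9 and 25.9 CPM. Here *Sirt6* cKO 1 alone stood high, and the log2 fold change was 0.68 (SE 0.38) at an adjusted p = 0.68 by edgeR's quasi-likelihood test. Of 12 neutrophil markers tested, 0 were higher and 1, *Mmp8*, was lower at an unadjusted p under 0.05. Summed over the 14 neutrophil markers in the count table, tested or not, the level was 1488 and 1108 CPM in WT and 1247 and 1006 CPM in the other group. Of 13 macrophage and dendritic cell markers, 0 were higher and 3 (*Lyz2*, *Cd68* and *Emr1*) were lower, beside 5.27% and 3.32% of all genes tested. Their sum was 5418 and 3395 CPM in WT and 2499 and 2522 CPM in the cKO-labelled libraries. The part of these cells in the levels of *S100a8* and *S100a9* was not tested.

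Across the 13 tested S100a genes, 11 had a positive log2 fold change and 2 a negative one, with a median of 0.33, beside 49.6% positive among all genes tested. None had an unadjusted p under 0.05, and the lowest adjusted p was 0.62, for *S100a3* (edgeR's quasi-likelihood test). The 3 genes with the largest differences, *S100a2*, *S100a3* and *S100a4*, are neighbours and were named after their values were seen. Counts of *S100a2* were 30 and 7 in WT against 64 and 105 (log2 fold change 2.24, SE 1.3). Those of *S100a3* were 391 and 186 against 528 and 653 (1.09, SE 0.49). Those of *S100a4* were 126 and 111 against 190 and 236 (0.90, SE 0.64). All 3 were without overlap between the groups, but exons of *S100a3* and *S100a4* overlap those of *Gm42674* by 144 and 302 bases, so reads there cannot be assigned with certainty. The family summed to 3258 and 3515 TPM in WT and 3846 and 3636 TPM in the other group, of which *S100a16* and *S100a14* were the larger part in every library.

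**Figure D3:**
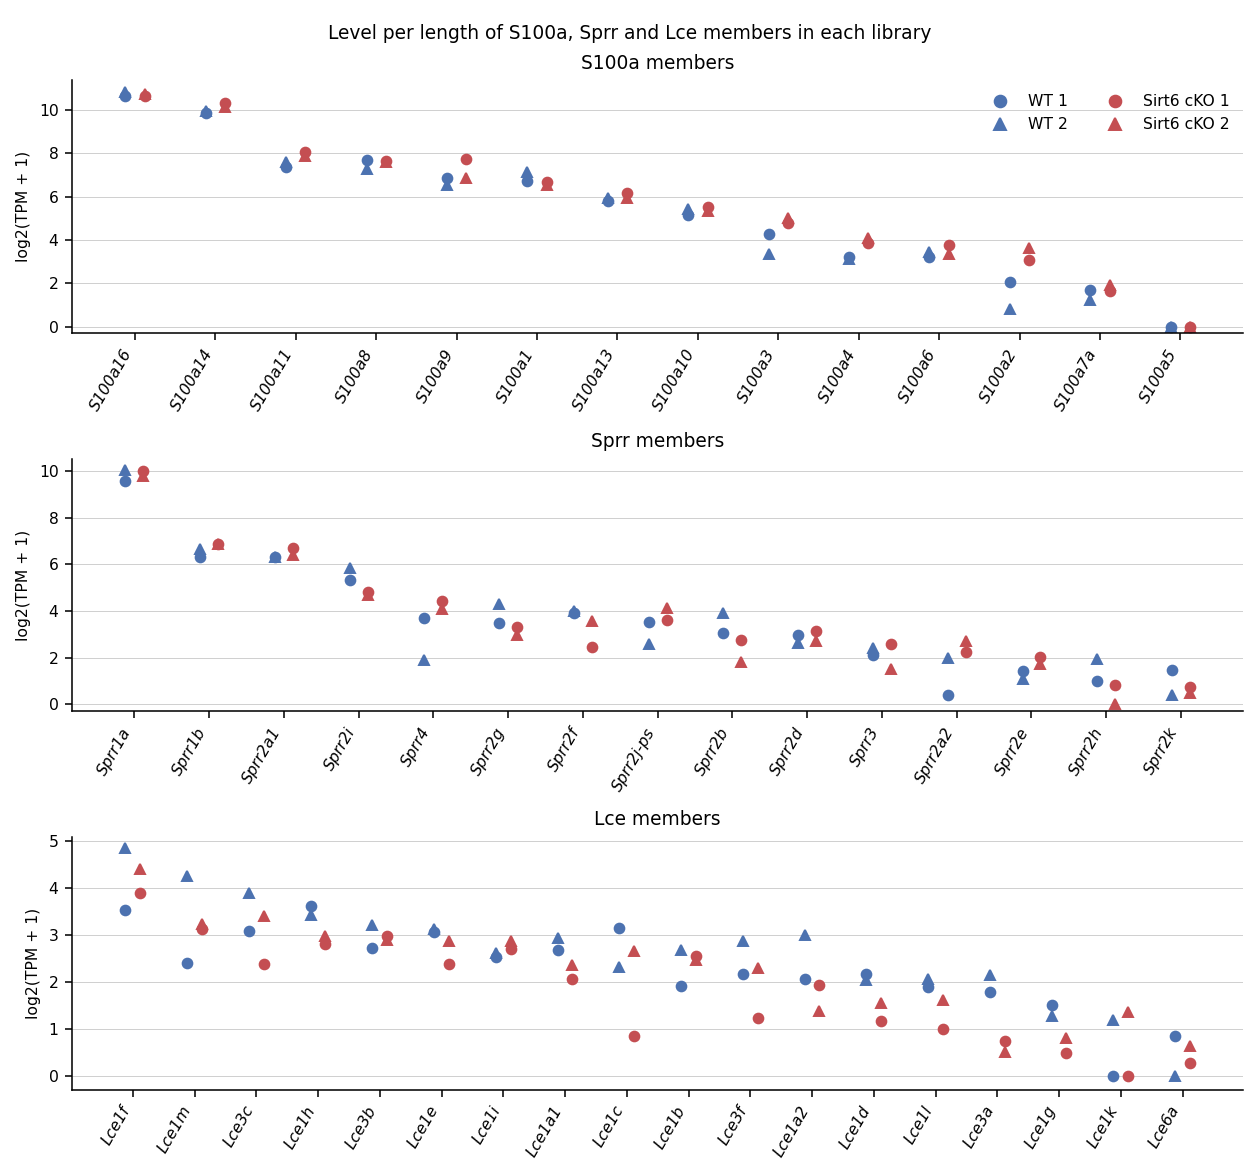
Points are log2(TPM + 1) in each library, for the 14 S100a, 15 Sprr and 18 Lce members ordered by mean level. *S100a16*, *S100a14* and *Sprr1a* are the highest, while the Lce genes are low and their libraries scatter.

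The members differ by location as well as by role. Of the 58, 53 lie within 3.05 Mb of chromosome 3 (90511034 to 93564643), and *Tgm1*, *Tgm3*, *Cnfn*, *Grhl1* and *Grhl3* lie on other chromosomes. The S100a block comes first, then *Lor*, the Sprr block, *Ivl*, the Lce block and the fused-type genes, with *S100a11* and *S100a10* at the far end. The count table held 13 other genes between the outermost members, and 11 of them were tested. *Crnn*, *2310050C09Rik* and *Pglyrp4* were higher at an unadjusted p under 0.05 and 0 were lower, while 7 of the 11 log2 fold changes were positive and the median was 0.53. By the same counts over all genes tested, 5.27% were higher, 3.32% were lower and 49.6% were positive. *Crnn*, which codes for the fused-type protein cornulin beside *Flg2*, had 74.2 and 84.3 CPM in WT and 133 and 180 CPM in the cKO-labelled libraries (0.98, SE 0.23). *Flg2*, at -0.24, lies between *Crnn* and *Hrnr*. Leaving out WT 1, *Sirt6* cKO 1 or *Sirt6* cKO 2, adding a replicate block, or keeping only genes with TPM over 0.1 in all libraries, left 1 neighbour higher at an unadjusted p under 0.05.

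**Figure D4:**
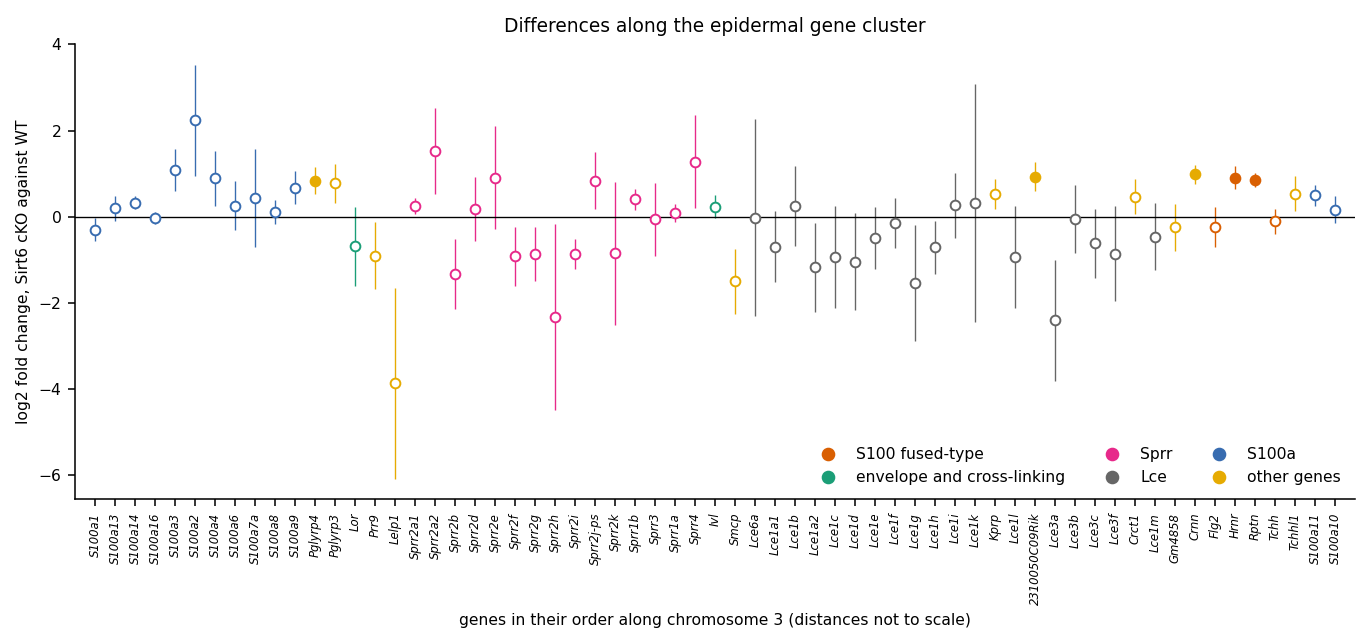
Each point is the log2 fold change (edgeR, bars of 1 standard error) of a tested gene on chromosome 3, placed by order and not by distance. Filled points, at an unadjusted p under 0.05, are *Pglyrp4*, *2310050C09Rik*, *Crnn*, *Hrnr* and *Rptn*. Of the 18 Lce genes, 15 lie below 0, and the Sprr2 genes lie on both sides of 0.

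Genes of keratinocyte terminal differentiation outside the members were also counted. Of 61 such cornification partners tested, 17 were higher and 2 were lower at an unadjusted p under 0.05 (edgeR's quasi-likelihood test), 47 were positive, and the median log2 fold change was 0.40. Over all genes tested, 5.27% were higher, 3.32% were lower and 49.6% were positive. This list was chosen with earlier results of these data known, so its counts are descriptions. The list shares 5 genes with the chromosome 3 neighbours, and 2 of these, *Crnn* and *Pglyrp4*, are counted as higher in both. None passed the Benjamini-Hochberg adjustment, and 7 passed that of DESeq2. The desmosomal cadherins *Dsg1b* (1.75, SE 0.44) and *Dsg1a* (1.46, SE 0.36), the envelope scaffold envoplakin (*Evpl*, 1.64, SE 0.43), suprabasin (*Sbsn*, 1.25, SE 0.38) and the lipid transporter *Abca12* (1.14, SE 0.44) were among those higher. *Casp14*, which codes for a protease of filaggrin breakdown, had the larger difference of the 2 lower by this rule (-1.25, SE 0.36). Of the 61 partners, 14 were negative. *Krt10* (-1.31, SE 0.66) and *Elovl4* (-1.38, SE 1.0) lay further below 0 than *Casp14* without an unadjusted p under 0.05. The count of those higher was 8 without WT 1, 7 without *Sirt6* cKO 1 and 10 without *Sirt6* cKO 2, and the median stayed between 0.30 and 0.54.

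Of 27 regulators of keratinocyte differentiation tested, 7 were higher and 1 was lower by the same rule, with a median of 0.30. The shares over all genes tested were 5.27% and 3.32%. *Elf3*, an Ets factor of differentiating epithelium, had 84.0 and 91.9 CPM in WT and 262 and 265 CPM in the cKO-labelled libraries. It was the furthest from 0 relative to its error in this list, with a log2 fold change of 1.58 (SE 0.17, adjusted p = 0.25, edgeR's quasi-likelihood test). DESeq2 gave it an adjusted p of 2.57e-10. *Prdm1*, which codes for Blimp1 (1.70, SE 0.55), and *Ovol1* (0.62, SE 0.20) were also higher, and *Lmo4* was lower (-0.59, SE 0.19). Between 2 and 5 regulators were higher when a library was left out, and 4 were higher with upper quartile normalization or library size alone.

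S100 proteins act through partners such as annexins, and receptors. Of 23 such partners and S100 genes outside the rule, 1 was higher, *Ezr*, which codes for the membrane linker ezrin (0.75, SE 0.15), and 0 were lower. Over all genes tested the shares were 5.27% and 3.32%. The median of this list was -0.08. The median of the members, 0.12, lay between this and the 0.40 of the cornification partners.

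**Figure D5:**
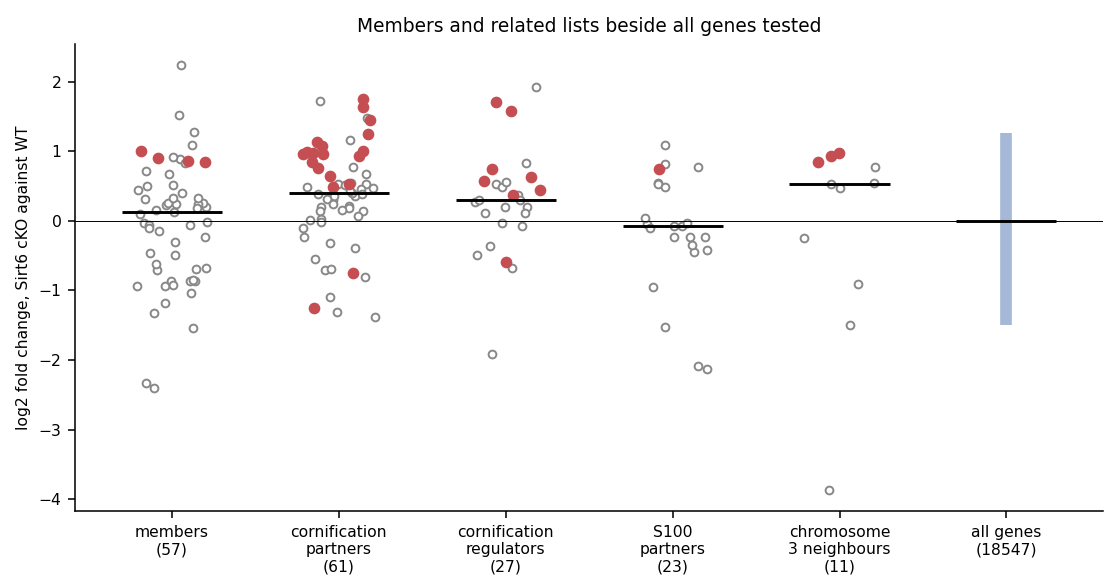
Points are log2 fold changes (edgeR) of single genes in the members and 4 related lists (partners and neighbours share 5 genes), red at an unadjusted p under 0.05, with black bars at the medians. The blue bar spans the 5th to 95th percentile of all 18547 genes tested, from -1.49 to 1.26, and the medians run from -0.08 for the S100 partners to 0.53 for the chromosome 3 neighbours.

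Other cell types that the sort could hold were checked beside these values. Of 8 markers of cortical thymic epithelium, *Ly75* and *Dll4* were higher and 0 were lower, and the list summed to 1055 and 976 CPM in WT and 1124 and 764 CPM in the other group. Of 12 thymocyte markers, 0 passed in either direction, and the sums were 1522 and 1060 CPM against 1285 and 751 CPM. Of 6 B cell markers, *Blk* was higher, and of 11 fibroblast and endothelial markers, *Lum* was lower. By the same rule, 5.27% of all genes tested were higher and 3.32% were lower. The part of any of these in the values of the members was not tested.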

How the data were processed

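RNA-seq of sorted mTECs was analysed in 2 WT and 2 cKO-labelled libraries. Reads had been trimmed (Trim Galore), mapped to mm10 (HISAT2 2.1.0) and quantified (StringTie 1.3.3) by the authors. The gene annotation and the strand setting are not given in the sources used here. The deposited counts are raw whole numbers per gene. The deposited TPM values came with 1 line in each table that names no gene and holds the column total, which was left out.

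Counts were tested with edgeR 4.0.16 in R 4.3.3 (TMM, filterByExpr at its default minimums of 10 counts and 15 in total, glmQLFit, glmQLFTest, no covariate) across all genes, with Benjamini-Hochberg adjustment over the 18547 tested. The biological coefficient of variation was 0.557. SEs were the log2 fold change divided by the square root of F. CPM used TMM library sizes. An exact permutation test of 2 libraries against 2 cannot go below p = 0.333 and was not used. The members and lists were chosen with earlier results of these data known, so their counts are descriptions.

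Values in every library are given for members with an unadjusted p under 0.05, the 3 members of each role group with the highest mean TPM, and *Grhl1*, *Grhl3*, *Ivl*, *Lor*, *Tgm1*, *Tgm3*, *S100a8* and *S100a9*. Up to 6 genes of each list with the largest difference at an unadjusted p under 0.05 are named, except that some regulators are not reported here by name. Positions, exon overlaps and shared 50-base words came from GENCODE M21 on GRCm38. The alternatives were DESeq2 1.42.0, fits without the count filter or with the authors' TPM filter (over 0.1 in all libraries), scaling by library size alone or by the upper quartile, a replicate block, limma 3.58.1 on log2(TPM + 1) or log2(TPM + 0.1), and leaving out single libraries. The procedure was run on simulated data with less spread and larger differences than those of the members called here. That run therefore does not show how the procedure performs at differences of this size. Of the partners, *Csta1*, *Cers3* and *Il36rn*, of the regulators *Kdf1*, and of the markers *Ly6g* and *Adgre1* were not analysed here under those names.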

Additional observations from a re-analysis of the deposited data

How the results depend on the processing

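Of the member counts, those higher numbered 4 and became 7 with limma on log2(TPM + 1) and between 2 and 5 with a library left out. Those lower numbered 0 and became 1 with the TPM filter, upper quartile normalization or library size alone, 4 and 3 with limma on log2(TPM + 1) and log2(TPM + 0.1), and 0 to 1 with a library left out. The median of 0.12 ran from 0.066 to 0.22 with a library left out. DESeq2 gave 2 members, 7 partners, 1 regulator, 1 S100 partner and 1 neighbour an adjusted p under 0.05, against 0 in edgeR. Cornification partners higher numbered 10 with limma on log2(TPM + 0.1) and 7 to 17 with a library left out, and those lower 1 to 3. Regulators higher numbered 4 with upper quartile normalization, library size alone or limma on log2(TPM + 1), 2 with limma on log2(TPM + 0.1) and 2 to 5 with a library left out. Regulators lower numbered 0 with the replicate block or limma on log2(TPM + 1) and 0 to 2 with a library left out, and their median was 0.21 to 0.40. S100 partners higher numbered 2 with DESeq2 or the TPM filter and 1 to 3 with a library left out, and those lower 1 with upper quartile normalization, library size alone or limma on log2(TPM + 1) and 0 to 1 with a library left out. Neighbours higher numbered 1 with the TPM filter or the replicate block and 1 to 2 with a library left out, and those lower 1 with either limma fit.

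The sign of 16 members changed when 1 library was left out, 8 of them named by the rule. Leaving out each library in turn moved *Lce1f* from -0.70 to 0.68, *Lce1m* from -1.17 to 0.89, *Lor* from -2.12 to 0.19, *S100a16* from -0.13 to 0.034, *S100a8* from -0.095 to 0.35, *Sprr1a* from -0.13 to 0.32, *Tchh* from -0.50 to 0.18 and *Tgm3* from -0.61 to 0.86. With a library left out, its group holds 1 library, which is assumed to vary like the others. Same-numbered libraries shared no deviation over all genes (correlation of same-numbered deviations -0.054 over 18547 genes). This does not decide whether they were paired in the experiment. With the replicate block, 4 members were higher and 0 lower, and the calls over all genes went from 977 and 615 to 697 and 449. The causes were not tested. Members under about 100 counts, mostly Lce and Sprr2 genes, had the widest errors, with standard errors up to 2.76 for *Lce1k*.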
